A study of Homo sapiens with 4 samples.

Results

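The transcripts described here are those measured lower in both Nalm-6 lines in which Arp8 was manipulated than in wild-type and Arp5 KO cells. The members were chosen by their measured levels, and a probe was taken when the higher of its log2 levels on the Arp8 arrays was more than 0.8 below the lower of its levels in wild-type and Arp5 KO cells. This distance is called the gap below. The probe had to be well above background on all 4 arrays, and its signal had to reach 50 units in both wild-type and Arp5 KO cells. Of the 23416 probes that passed these limits on brightness, 175 (0.747%) were lower in both Arp8 lines. With normexp, another background correction, which draws dim ratios towards 0, there were 93. In all, 40822 probes were measured. All 4 arrays entered this choice, so the values of the members are a description of it, and no test was made on them.

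Total RNA of Nalm-6 cells, an established human pre-B leukemia cell line, was hybridized to single-color expression arrays. The cells were not treated with an oxidant. There was 1 array for each of wild-type cells, Arp5 KO cells, Arp8 KO cells and cells labelled as overexpressing Arp8 (Arp8 OE), and no difference has a replicate check. All 4 arrays lay on 1 slide and came from 1 scan, and the number of arrays limits the precision. In the Arp5 KO and Arp8 KO cells the gene of the named protein was disrupted by homologous recombination. The overexpression was made with a tetracycline-regulated Tet-Off construct, which according to the submitters' design concerns the Arp8 KO cells. The paper states that conditional KO of Arp8 was lethal to cells, whereas Arp5 KO cells survived and grew slowly. Each KO genotype was an established line, and how the lines on the Arp8 arrays descend from each other is not given in the sources used here. Genotype and clonal origin therefore cannot be told apart in any value below. The values are processed signals, in the brightness units of the scanner software, and log2 ratios were taken after each array was scaled to its 75th percentile.

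Arp5 and Arp8 are actin-related proteins and belong to INO80, an ATP-driven machine that slides nucleosomes along DNA. A pre-B cell is a B-lymphocyte precursor, which carries cytokine receptors such as the receptor for interleukin 7. Nalm-6 cells keep many features of this stage. The 18 measured genes of a list of B-lineage markers were well above background on every array, and *CD79A*, a signaling chain of the B-cell receptor, gave 18833 units in wild-type, 12612 in Arp5 KO, 17443 in Arp8 KO cells and 27035 in cells labelled Arp8 OE.

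The array labelled Arp8 OE had no higher *ACTR8* mRNA than wild-type cells. Probe A_23_P80694 of *ACTR8*, the gene for Arp8, gave 1092 units in wild-type, 993 in Arp5 KO, 785 in Arp8 KO cells and 679 in cells labelled Arp8 OE. Probe A_24_P131697 gave 2149, 2233, 1654 and 1857 units in the same order. Whether these probes reach the disrupted part of the gene, or the introduced copy, was not tested, so the labels of the Arp8 arrays have no check from this gene. *ACTR5*, the gene for Arp5, had a signal of 65.3 units in Arp5 KO cells, against 1909 in wild-type cells.

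Of the 175 member probes, 103 could be tied to 91 genes and 72 could not. Of the 11342 genes with a probe that passed the limits on brightness, 0.802% had a member. A group of 34 member genes lay in a single stretch of chromosome 9, among other genes of the stretch that are no members, and the other 57 were spread over the genome. To show sequence at the starts of genes from both groups, the promoters of the first 2 genes by gap inside the stretch, *FGD3* and *AOPEP*, and of the first 2 outside it, *DDIT4L* and *TJP1*, are printed. Each line gives the 250 bases before the start of the gene from RefSeq, in build GRCh38.p14. *FGD3* lies at chr9:92947273-92947522 and *AOPEP* at chr9:94726449-94726698, both on the plus strand. *DDIT4L* lies at chr4:100190469-100190718 and *TJP1* at chr15:29969050-29969299, both on the minus strand. Capitals mark matches, on either strand, to the motifs named after the sequences.
FGD3: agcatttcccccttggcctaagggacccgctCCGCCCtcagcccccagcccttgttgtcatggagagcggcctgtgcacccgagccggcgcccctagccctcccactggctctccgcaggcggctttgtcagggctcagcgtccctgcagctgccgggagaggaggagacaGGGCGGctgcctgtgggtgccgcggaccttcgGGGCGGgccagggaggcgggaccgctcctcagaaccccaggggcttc
AOPEP: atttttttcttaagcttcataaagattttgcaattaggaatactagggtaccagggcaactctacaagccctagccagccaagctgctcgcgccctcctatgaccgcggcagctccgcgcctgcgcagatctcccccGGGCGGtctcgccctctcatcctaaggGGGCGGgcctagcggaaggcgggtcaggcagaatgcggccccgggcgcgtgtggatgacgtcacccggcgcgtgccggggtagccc
DDIT4L: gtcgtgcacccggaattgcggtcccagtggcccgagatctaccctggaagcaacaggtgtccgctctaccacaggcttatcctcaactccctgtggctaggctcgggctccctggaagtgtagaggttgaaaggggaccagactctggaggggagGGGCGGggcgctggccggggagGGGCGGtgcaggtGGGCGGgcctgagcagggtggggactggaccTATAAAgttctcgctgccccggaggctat
TJP1: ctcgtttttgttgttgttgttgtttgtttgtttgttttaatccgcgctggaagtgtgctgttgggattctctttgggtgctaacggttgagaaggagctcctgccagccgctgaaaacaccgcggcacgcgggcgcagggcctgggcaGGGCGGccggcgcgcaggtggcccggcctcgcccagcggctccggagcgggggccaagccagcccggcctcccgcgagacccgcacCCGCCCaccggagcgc

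The motifs searched on both strands were the TATA box as TATAAA, the CCAAT box as CCAAT, the GC box as GGGCGG, an E-box as CACGTG, the AP-1 motif as TGANTCA, the YY1 core motif as AAGATGG and the EBF1 motif. The GC box was found in each of the 4 printed promoters, and the TATA box only in that of *DDIT4L*. In the printed sequences no match overlapped another. Of 35116 promoters of the same length, 42.6% hold the GC box, 32.0% the CCAAT box, 10.7% the TATA box, 6.57% the AP-1 motif, 6.34% this E-box, 3.70% the YY1 motif and 1.06% the EBF1 motif. Among the promoters of genes that passed the limits on brightness, 63.2% hold the GC box. A promoter entry was found for 72 of the 91 member genes, some with several. The GC box was in 27 of 40 entries of the stretch (67.5%) and in 39 of 57 entries outside it (68.4%). The CCAAT box was in 15 of 40 and in 13 of 57 entries. The YY1 motif was in 0 of the 40 entries of the stretch and in 1 of the 57 outside. These matches describe letters only.

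Member genes were concentrated on chromosome 9. Of the 440 genes of this chromosome that passed the limits on brightness, 36 had a member probe, a share of 8.18%. On the other chromosomes the share was between 0 and 1.69%, the latter for 2 of 118 genes on chromosome 21. Of the 36 genes, 34 lay between *BICD2* and *INIP*, a stretch of 68 neighboring genes in order along the chromosome. The remaining pair, *EGFL7* and *DIPK1B*, lay elsewhere on the chromosome. The stretch was found by joining member genes at most 10 tested genes apart, and no other run on any chromosome held more than 2 member genes. The mirror rule, for probes higher in both Arp8 lines, took 87 of 23299 probes (0.373%). Their 68 genes made no run of more than 2, and 0 of them lay on chromosome 9.

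Not only the members of the stretch were lower. Over its 68 genes, the log2 ratio to wild type had a median of -0.93 in Arp8 KO cells and -0.97 in cells labelled Arp8 OE, which is 52.4% and 51.1% of the wild-type level. In Arp5 KO cells the median was -0.08, or 94.6%. Relative to Arp5 KO cells in place of wild-type cells, the medians were -0.91 and -0.95. Of the 68 genes, 61 were below wild type on both Arp8 arrays, where 31% of the 11342 genes were. The rule places member probes there, so the 34 member genes enter this count by choice. Of the 34 genes without a member probe, 27 were below wild type on both arrays. A narrow band from -1.5 to -0.5 held 51 of the 68 genes (75%) on both arrays, against 210 of the 11274 genes outside the stretch (1.86%). The 34 genes of the stretch with no member probe had medians of -0.71 and -0.72, so they lay in the same direction and nearer to 0. The ends of the stretch were set by its members, and these values describe that choice too.

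The shift was bounded at both ends of the stretch. The 20 genes before it had medians of 0.04 in Arp8 KO cells and 0.01 in cells labelled Arp8 OE, and the 20 genes after it had 0.08 and 0.12. *IPPK*, which makes inositol hexakisphosphate and is the last gene before the stretch, had log2 ratios of -0.72 and -0.87 but no member probe. *CENPP*, a centromere protein gene next to it on the outer side, had 0.38 and 0.17. Beyond *INIP* the next gene was *SLC31A2*, with 0.20 and -0.08. The 372 other genes of chromosome 9 had medians of 0.06 and 0.07. A running median over 21 genes reached -1.01 in Arp8 KO cells and -1.04 in cells labelled Arp8 OE within the stretch. Elsewhere in the genome its lowest value in Arp8 KO cells was -0.24. In cells labelled Arp8 OE it was -0.92, at a cluster of histone genes on chromosome 6 that holds 0 member genes. In Arp5 KO cells the running median of windows touching the stretch did not go below -0.14. The DNA of these cells was not analysed here.

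In order, 32 of the 34 member genes of the stretch were *BICD2*, *FGD3*, *PTPDC1*, *SLC71A2*, *AOPEP*, *FANCC*, *ERCC6L2*, *ZNF367*, *HABP4*, *PRXL2C*, *ZNF510*, *TSTD2*, *NCBP1*, *ANP32B*, *NANS*, *ALG2*, *STX17*, *ERP44*, *INVS*, *TEX10*, *MRPL50*, *ZNF189*, *RNF20*, *SMC2*, *SLC44A1*, *RAD23B*, *CTNNAL1*, *TMEM245*, *TXN*, *DNAJC25*, *GNG10* and *INIP*. They have unlike roles in the cell. Apart from *FGD3* and *AOPEP*, these genes, 30 in number, had log2 ratios from -1.47 to -0.83 in Arp8 KO cells and from -1.51 to -0.81 in cells labelled Arp8 OE. In Arp5 KO cells they lay between -0.28 and 0.24.

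*TXN*, the gene for the redox protein thioredoxin, was measured by 2 member probes. Probe A_23_P60248 gave 40465 units in wild-type, 44747 in Arp5 KO, 19691 in Arp8 KO cells and 20208 in cells labelled Arp8 OE. Probe A_24_P175519 gave 33998, 34592, 15472 and 15362 units in the same order. For each probe the levels on the Arp8 arrays were near each other, while the rule sets them apart from wild-type and Arp5 KO cells. *RAD23B*, whose protein helps to recognize damaged DNA in nucleotide excision repair, had 3 member probes. Its brightest, A_23_P255273, gave 18993 units in wild-type, 17763 in Arp5 KO, 9111 in Arp8 KO cells and 9413 in cells labelled Arp8 OE. All 3 probes had log2 ratios between -1.07 and -0.89 on both Arp8 arrays.

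A few genes of the stretch with known roles in genome maintenance are given with their values. *FANCC*, of the Fanconi anemia pathway of DNA crosslink repair, gave 4369 units in wild-type, 4289 in Arp5 KO, 1736 in Arp8 KO cells and 2143 in cells labelled Arp8 OE. *SMC2*, a condensin subunit, gave 4575, 3764, 1666 and 1621 units in the same order. *RNF20*, a ubiquitin ligase for histone H2B, gave 2635, 2541, 1403 and 1337 units. *FANCC*, *SMC2* and *RNF20* were named after their values were seen, for their known roles. *XPA*, a nucleotide excision repair gene of the stretch without a member probe, had log2 ratios of -0.71 in Arp8 KO cells and -0.60 in cells labelled Arp8 OE, and was also named after its values were seen. The list of DNA repair genes held 0 members among its 22 genes, with medians of -0.17 and 0.02.

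Apart from *TXN* and *AOPEP*, 4 genes of the stretch had 2 member probes each. *ZNF367*, a zinc finger gene, had mean log2 ratios of -1.18 in Arp8 KO cells and -1.17 in cells labelled Arp8 OE. *ZNF189*, another zinc finger gene, had -1.18 and -1.45. *TMEM245*, a transmembrane protein gene, had -1.33 and -1.12. *TSTD2*, which encodes a protein with a rhodanese domain, had -0.94 and -1.0. Their ratios in Arp5 KO cells lay between -0.19 and 0.24.

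Among these genes, *FGD3* and *AOPEP* fell much further than their neighbors. *FGD3*, which encodes an exchange factor for the GTPase Cdc42, had a gap of 5.49, the widest of the members in the values used here. With normexp its gap was 4.01 and that of *DDIT4L* was wider, at 4.27. Probe A_24_P153840 gave 1887 units in wild-type and 1621 in Arp5 KO cells, against 14.5 in Arp8 KO cells and 37.2 in cells labelled Arp8 OE. Its log2 ratios were -7.03 and -5.68. Another *FGD3* probe, A_23_P134980, gave 175 and 155 units in wild-type and Arp5 KO cells and 10.2 and 11.2 on the Arp8 arrays. It was not well above background in Arp8 KO cells and is no member, and its wild-type level was at least 17.2-fold the Arp8 KO level. *AOPEP*, an aminopeptidase gene, had 2 member probes. A_24_P89887 gave 219 units in wild-type, 178 in Arp5 KO, 38.9 in Arp8 KO cells and 43.2 in cells labelled Arp8 OE, and A_23_P73012 gave 241, 232, 63.7 and 61.7 units.

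Some transcripts of the stretch were not measurable on the Arp8 arrays and so could not become members. They were singled out after their values were seen. *ANKS6*, which encodes a protein of the primary cilium, gave 1849 units in wild-type and 1334 in Arp5 KO cells with probe A_23_P362183. On the Arp8 arrays it gave 2.25 and 1.98 units and was not well above background on either. Its level in wild-type cells was at least 198-fold that in Arp8 KO cells and at least 211-fold that in cells labelled Arp8 OE. A dimmer *ANKS6* probe, A_24_P380861, gave 47.9 and 36.5 units in wild-type and Arp5 KO cells and was not well above background on the Arp8 arrays either. *GALNT12*, which starts the O-glycosylation of mucins, gave 200 units in wild-type, 133 in Arp5 KO, 1.98 in Arp8 KO cells and 1.81 in cells labelled Arp8 OE, a level at least 21.4-fold and 22.8-fold lower. In these minimum ratios a signal below the dimmest probe that passed the background mark was raised to that probe's level, at 9.44 units in Arp8 KO cells and 8.87 units in cells labelled Arp8 OE.

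Other genes of the stretch were not lower. *CTSV*, the cathepsin V gene, had log2 ratios of 0.53 in Arp8 KO cells and 0.50 in cells labelled Arp8 OE. *ABCA1*, a cholesterol transporter gene, had 0.33 and 0.23. *CCDC180* had 0.14 and 0.21, and *PALM2AKAP2* had 0.09 and 0.27. The probes of *PALM2AKAP2* disagree, since its probe A_23_P359043, too dim in Arp5 KO cells for the rule, had -2.33 and -1.32. *MKRN10P*, *GAS2L1P2* and *NIPSNAP3B* were below wild type in Arp8 KO cells and above it in cells labelled Arp8 OE. These are the 7 of the 68 genes that were not lower on both arrays, named for that after their values were seen. A further 20 probes of the stretch were well above background on all arrays but under 50 units in wild-type or Arp5 KO cells. Over these dim probes the medians were 0.01 in Arp8 KO cells and -0.30 in cells labelled Arp8 OE, and 9 of the 20 were below wild type on both, where 35% of the 4505 such dim probes of the whole array were.

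Member probes inside and outside the stretch differed in how far they fell. The 42 members of the stretch had median log2 ratios of -1.11 in Arp8 KO cells and -1.05 in cells labelled Arp8 OE. The 61 members of the 57 other genes had -1.76 and -1.72. The 72 members without a gene name had -1.12 and -1.21. Over all 175 members the medians were -1.17 and -1.30, against 0.02 and 0.02 over the 23416 probes. In Arp5 KO cells the members' median was -0.01, and 151 of them were within 0.5 of wild-type cells, where 91% of the 23416 probes were. The rule used both arrays, and nothing is read from this count.

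Of the 175 members, 132 were lower than wild-type beyond 2-fold in Arp8 KO cells, where 1.4% of the 23416 probes were. In cells labelled Arp8 OE it was 142, where 1.99% of all probes were, and on both arrays 113, where 0.688% were. The rule used these contrasts, and nothing is read from the counts. The median wild-type signal was 397 units over the members, against 1248 over the 23416 probes. It was 1934 units for the members in the stretch, 579 for those of other genes and 184 for those without a gene name, so only the stretch members were brighter than all probes by this median. On an Arp8 array 59 members were under 50 units, of which 4 lay in the stretch. The median technical SD of a log2 ratio, from spots repeated on an array, was 0.50 for a dimmer signal under 10 units, 0.22 from 10 to 50 units, 0.06 from 50 to 500 units and 0.03 above. It holds no variation between cultures, and no member was itself repeated on the array.

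The Arp8 arrays were compared with each other over the members. Their log2 levels were within 0.5 for 142 of the 175 members, where 90.7% of the 23416 probes were. This held for 41 of the 42 members in the stretch, 43 of the 61 members of other genes and 58 of the 72 without a gene name. The median difference of Arp8 KO cells from cells labelled Arp8 OE was 0.07 over the members, against 0.004 over the 23416 probes. Of the 6 members beyond 2-fold apart, 3 had a gene, namely *FGD3*, *DDIT4L* and *BTBD6*. Over the 23416 probes, 0.615% were lower and 0.658% higher beyond 2-fold in Arp8 KO cells than in cells labelled Arp8 OE.

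Of the 25 genes with the widest gap, 23 lay outside the stretch. Enzymes and signaling proteins were among the first. *DDIT4L*, an inhibitor of mTOR signaling, gave 15209 units in wild-type, 23942 in Arp5 KO, 759.6 in Arp8 KO cells and 272 in cells labelled Arp8 OE. *ADCY1*, an adenylyl cyclase gene, gave 675, 636, 35.6 and 23.9 units in the same order. *YOD1*, a deubiquitinase gene, gave 1414, 1176, 65.5 and 88.2 units. The gap was 4.34 for *DDIT4L*, 4.20 for *ADCY1* and 3.78 for *YOD1*, so wild-type and Arp5 KO cells lay far above the Arp8 arrays. *BTBD6*, which encodes an adaptor of a ubiquitin ligase, gave 8796, 8954, 551 and 1868 units. It differed most between the Arp8 arrays among the members, with a log2 difference of -1.76. Another *YOD1* probe, A_24_P32790, gave 67.8 and 52.2 units in wild-type and Arp5 KO cells and was not well above background on the Arp8 arrays.

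Some members encode proteins of cell junctions and adhesion. *TJP1*, which encodes the tight junction protein ZO-1, gave 271 units in wild-type, 275 in Arp5 KO, 14.1 in Arp8 KO cells and 10.1 in cells labelled Arp8 OE. Another *TJP1* probe, A_24_P193435, gave 321 and 311 units in wild-type and Arp5 KO cells and was not well above background on the Arp8 arrays, so with both probes wild-type and Arp5 KO cells lay above the Arp8 arrays. *ESAM*, an endothelial adhesion molecule, was the only member of a list of 14 measurable adhesion and homing genes, whose medians were 0.04 in Arp8 KO cells and 0.13 in cells labelled Arp8 OE. Its probe A_24_P13190 gave 597, 1101, 202 and 104.8 units, and A_23_P47410 gave 437, 877, 162 and 110 units. *ESAM* was the only member higher beyond 2-fold in Arp5 KO than in wild-type cells, by 1 of its 2 probes, where 0.585% of all probes were. *EGFL7*, a secreted protein of blood vessels, gave 171, 289.7, 49.6 and 42.4 units.

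Some members encode receptors of lymphocytes. *IL2RG*, the common gamma chain shared by the receptors for interleukins 2 and 7, gave 247 units in wild-type, 116 in Arp5 KO, 31.2 in Arp8 KO cells and 37.3 in cells labelled Arp8 OE. *IL7R*, the alpha chain of the interleukin 7 receptor, gave 10613, 11842, 5013 and 5832 units in the same order. Both chains of this receptor are members, so the rule places them lower on both Arp8 arrays. The log2 ratios were -3.0 and -2.74 for *IL2RG* and -1.09 and -0.88 for *IL7R*. *IL2RG* and *IL7R* were the members among 14 measurable genes of a list of cytokine receptors and JAK-STAT signaling. The medians of this list were 0.16 in Arp8 KO cells and 0.05 in cells labelled Arp8 OE. *IL12RB2*, a chain of the interleukin 12 receptor, gave 189, 202, 56.2 and 50.5 units. *SIGLEC10*, an inhibitory receptor of B cells that binds sialic acid, gave 142, 151, 23.8 and 19.3 units.

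Granzymes A and K, proteases of cytotoxic lymphocytes, are coded by neighboring genes. *GZMA* gave 4229.8 units in wild-type, 1535 in Arp5 KO, 317 in Arp8 KO cells and 519 in cells labelled Arp8 OE. *GZMK* gave 1333, 647, 302 and 318 units in the same order. Both were lower in Arp5 KO than in wild-type cells, and the rule places the Arp8 arrays lowest. Of 11 measured genes of a list of T and NK cell markers, 7 were well above background on each array, with a summed signal of 7228, 7662, 5511 and 8128 units. The most abundant was *CD4*, with 5261, 5912, 4516 and 6575 units. *LCK*, a kinase of T-cell receptor signaling, gave 1391, 1047, 528 and 1038 units, and *NKG7*, of cytotoxic granules, gave 325, 459, 245 and 264 units. *CD8A*, *CD2*, *CD7* and *CD3E* were dimmer and well above background on each array. *CD3E*, a chain of the T-cell receptor complex, gave 44.9, 47.7, 46.4 and 45.6 units with its brighter probe. The other 4 markers, *CD3D*, *CD3G*, *TRAT1* and *GNLY*, were not well above background on any array.

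Over the members the median log2 ratio of Arp5 KO cells to wild type was -0.01, against 0.04 over the 23416 probes. The rule places both Arp8 arrays below Arp5 KO cells for every member. In Arp5 KO cells 6 members were lower than in wild-type cells beyond 2-fold, where 0.517% of all probes were. They belong to *GZMA*, *GZMK*, *IL2RG*, *TTN*, *ELFN2* and *HSH2D*, the last named after its values were seen. *TTN*, the gene for the muscle protein titin, gave 589 units in wild-type, 226 in Arp5 KO, 66.7 in Arp8 KO cells and 75.4 in cells labelled Arp8 OE with probe A_23_P85269. *ELFN2*, a leucine-rich repeat protein gene, gave 1483, 539.8, 186 and 113 units. *HSH2D*, an adaptor protein of lymphocyte signaling, gave 1193, 514, 249 and 274 units. For these genes Arp5 KO cells lay between wild-type cells and the Arp8 arrays.

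Transcription regulators among the first 25 genes included zinc finger genes. *ZNF845* gave 476 units in wild-type, 355 in Arp5 KO, 35.7 in Arp8 KO cells and 36.1 in cells labelled Arp8 OE with its member probe. Another *ZNF845* probe, A_32_P207436, gave 1535, 1174, 1235 and 1099 units. It was below wild type on both Arp8 arrays, with log2 ratios of -0.33 and -0.50, but in Arp8 KO cells it was not below Arp5 KO cells. The probes of this gene thus disagree in how far they fell. *ZNF512B* gave 1098, 781, 83.0 and 67.2 units. *ZSCAN9* gave 946, 1211, 258 and 177 units. *NRIP1*, a corepressor of nuclear receptors, gave 10230.5, 8708, 2875 and 2739 units. *TBX2*, a T-box factor, gave 1246, 1449, 437 and 352 units. The rule places wild-type and Arp5 KO cells above both Arp8 arrays for each of these member probes.

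The remaining genes of the first 25 have varied roles. *STMN3*, which encodes a stathmin that binds tubulin, had 3 member probes, of which A_23_P165927 gave 1586 units in wild-type, 2061 in Arp5 KO, 325 in Arp8 KO cells and 449 in cells labelled Arp8 OE. *STMN3* and *ZNF512B* lie within 10 tested genes of each other on chromosome 20. *S100A11*, a calcium-binding protein gene, gave 246, 182, 27.9 and 30.03 units with its member probe. *SMCO4* gave 4474, 2324, 369 and 349.9 units. *SLC22A16*, a carnitine transporter gene, gave 735, 541, 139.9 and 178 units. *GVINP1*, a pseudogene, gave 113, 83.9, 16.5 and 25.6 units. All of these had a gap above 1.5, as did every gene of the first 25. Under normexp the gap shrank by more than 1.5 times for 10 of the 33 genes for which this was checked. Most of the 10 were dim on the Arp8 arrays. For *TJP1* the gap went from 4.28 to 2.16 and for *ADCY1* from 4.20 to 2.62. The others were *S100A11*, *SIGLEC10*, *AOPEP*, *EGFL7*, *IL12RB2*, *IL2RG*, *GVINP1* and *ZNF367*, and the gap of *GVINP1* at 0.75 and of *ZNF367* at 0.66 then no longer passed the threshold.

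*BAX*, which promotes apoptosis, was a member by 1 of its 3 probes. A_23_P346311 gave 3495 units in wild-type, 3822 in Arp5 KO, 1969 in Arp8 KO cells and 1568 in cells labelled Arp8 OE. A_23_P346309 gave 9381, 9295, 8893 and 9942 units, and A_23_P208706 gave 20466, 20293, 19825 and 14344 units. The log2 ratios of A_23_P346309 were -0.09 in Arp8 KO cells and 0.07 in cells labelled Arp8 OE, and those of A_23_P208706 were -0.06 and -0.53. The 3 probes of *BAX* thus disagree in Arp8 KO cells, where A_23_P346311 alone was far below wild type. *BAX* was the only member in a list of 18 p53 targets, with medians of 0.71 in Arp8 KO cells and 0.26 in cells labelled Arp8 OE, opposite in sign to its member probe. It was also the only one in a list of 17 apoptosis regulators, with medians of -0.02 and 0.06. Of the 24 lists examined, 20 had no member, among them the 16 genes of the INO80 complex, with medians of 0.06 and 0.08, and the 18 B-lineage markers, with -0.23 and -0.11. All genes that passed the limits on brightness had medians of 0.03 and 0.04.

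Other probes of member genes gave a mixed picture. There were 30 such probes, in 22 genes. Of these, 20 were well above background on all arrays, and 13 of the 20 were lower on both Arp8 arrays than in both wild-type and Arp5 KO cells, where 19.6% of the 27921 probes well above background were. Any gap above 0 counts here, down to 0.06 for A_23_P208706 of *BAX*. Several of the 13 belong to genes of the chromosome 9 stretch, such as *BICD2* and *ERP44*. *SOX7*, which encodes a SOX transcription factor, had 2 more probes that were lower by a gap of 0.62 and 0.74. *RPL10*, a ribosomal protein gene, was a member by a dim probe of 56.3 units in wild-type cells, and its 4 other probes, at 141955 units or more in wild-type cells, were not lower on both Arp8 arrays. *NFYC-AS1* was likewise a member by a dim probe of 67.6 units in wild-type cells. Its brighter probe A_24_P315500 gave 1827 units in wild-type, 1999.6 in Arp5 KO, 1963 in Arp8 KO cells and 1968 in cells labelled Arp8 OE, so the probes disagree.

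The other 32 member genes outside the stretch were *CD52*, *COL5A2*, *CSMD1*, *DIPK1B*, *FIRRE*, *GSAP*, *GZMK*, *HSH2D*, *IKZF3*, *IL17RC*, *ISM2*, *ITM2A*, *KBTBD7*, *KCNJ2*, *MIRLET7BHG*, *NFYC-AS1*, *PCDH9*, *PLXNA1*, *PRRT2*, *PRRT3*, *PTGDR*, *RPL10*, *RUNX1-IT1*, *S100A16*, *SAMD13*, *SLC30A3*, *SND1-IT1*, *SOX13*, *SOX7*, *TLCD3A*, *TMTC4* and *XKR4*. Each had 1 member probe, with log2 ratios from -2.27 to -0.80 in Arp8 KO cells and from -2.14 to -0.80 in cells labelled Arp8 OE. *IL17RC* and *PRRT3* lie within 3 tested genes on chromosome 3. The 72 probes with no gene name ranged from -2.68 to -0.81 and from -3.06 to -0.82. The first of them by gap, A_24_P357936, gave 226 units in wild-type, 265 in Arp5 KO, 35.7 in Arp8 KO cells and 27.5 in cells labelled Arp8 OE.

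At the threshold of 0.8 the gap runs on without a break. Just inside were A_32_P27991 at 0.802, *PRRT2* at 0.803 and *TMTC4* at 0.803. Just outside were *TMEM38B* at 0.79954, A_32_P82179 at 0.79898 and A_24_P307885 at 0.79854. *TMEM38B* lies in the chromosome 9 stretch.

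The limit on background also keeps out probes that missed the background mark on an Arp8 array. A further 21 probes were well above background and at 50 units or more in wild-type and Arp5 KO cells but not well above background on at least 1 Arp8 array. With the dim signals at their bound, 20 of them had a gap above 0.8. Of these 20, 13 were well above background on neither Arp8 array, and the others still passed the mark on 1 of them. Besides the genes of the stretch, the widest were *ZNF256*, a zinc finger gene, and *MBNL2*, a splicing regulator, both singled out after their values were seen. *ZNF256* gave 746 units in wild-type, 631 in Arp5 KO, 2.06 in Arp8 KO cells and 4.43 in cells labelled Arp8 OE. *MBNL2* gave 663, 518, 3.16 and 7.84 units in the same order. The lower of the wild-type and Arp5 KO levels was at least 68.7-fold the higher of the Arp8 levels for *ZNF256* and at least 56.4-fold for *MBNL2*.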

How the data were processed

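The authors deposited the output of Agilent Feature Extraction 10.5.1.1 for each array, whose processed signal is a linear intensity with the background already subtracted by the software. A table of intensities that the authors also deposited equals this signal times 1 factor per array (medians 0.847, 0.838, 0.825 and 0.807 in the order wild-type, Arp5 KO, Arp8 KO and Arp8 OE), with column medians of 127, 128, 122.5 and 119 units. How the factor was set is not given in the sources used here. Of 43376 spots on each array, 31188, 31420, 30394 and 30803 were well above background, and 0 were saturated.

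Control spots and outlier spots were left out. Log2 signals were taken relative to the 75th percentile of each array and averaged over the spots of a probe. A probe was well above background when most of its spots were. The accession of a probe gave its gene through the RefSeq table of GRCh38.p14 for 26222 of 41000 probes. The array design names build hg18, so the table was used for names and gene order only. Several probes of a gene were averaged for the gene order. Named genes were the first 25 by gap, those with 2 or more member probes, members in the lists, members at the threshold and in runs, and other probes of these genes. The members and lists were chosen with earlier results of these data known. The values of 2 member genes of the stretch are not reported here singly. The chromosome 9 stretch and its description were found in these data. Python 3.11.15 with numpy 2.4.6 and pandas 2.3.3, and R 4.3.3 with limma 3.58.1, were used. The selection was tested on simulated data. Alternatives were other scalings, normexp with an offset of 50 on the median signal, the authors' table, other limits on brightness, kept outlier spots and other gaps.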

Additional observations from a re-analysis of the deposited data

How the results depend on the processing

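No paired analysis was possible because each group has 1 array. Brightness limits these results, since 59 of the 175 members were under 50 units on an Arp8 array, where the technical SD is larger. Normexp was run on the median signal, in place of the mean signal, and by construction its offset draws dim ratios towards 0. Under the other scalings, the authors' table and the kept outlier spots the number of members was between 155 and 184, and the stretch held between 29 and 36 member genes. A higher minimum signal gave 137 members and no minimum gave 204. The gap was checked in 6 settings for 33 genes, namely the first 25 by gap, those with 2 or more member probes and members in the lists. It was not checked for *PRRT2*, *TMTC4*, *GZMK*, *IL17RC*, *PRRT3* and *DIPK1B*, named for the threshold or for runs. All 33 kept a gap above 0 in each of the 6 settings, and a gap above 0.8 in 5 of them. Under normexp 31 of the 33 did, and 27 of the 33 gaps moved beyond the technical SD, 10 of them by more than 1.5 times. In the other 5 settings 0 moved that far.

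Under normexp there were 93 members, of which 24 genes lay in the stretch, with a median of -1.19 in cells labelled Arp8 OE and a difference of 0.011 between the Arp8 arrays. The medians of the stretch genes were then -0.83 in Arp8 KO cells and -0.84 in cells labelled Arp8 OE. A gap above 1 left 75 probes and 45 genes, 10 of them in the stretch, with medians of -1.76 and -1.84. A gap above 0.6 gave 330.0 probes and 139 genes, 48 of them in the stretch, with -1.01 and -1.10. Thresholds move these values by construction. Other settings were chosen after seeing the data. Without the genes of the stretch there were 57 member genes. The median in cells labelled Arp8 OE was then -1.38 over 133 probes, which include the 72 probes with no gene name, whose position is not known. With probes not well above background on an Arp8 array taken at their bound there were 195 members and 104 genes. The check of the stretch medians under each setting was also added then.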

Other observations

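Some genes of the lists were higher on both Arp8 arrays, in the opposite direction to the members, and were singled out after their values were seen. *CD33*, a myeloid surface receptor, gave 587 units in wild-type, 854 in Arp5 KO, 2792 in Arp8 KO cells and 1703 in cells labelled Arp8 OE with probe A_23_P331748. Its other probe gave 317, 445, 1338 and 795 units. *LYZ*, the lysozyme gene, gave 55.4, 46.3, 143 and 139.7 units. *ITGAM*, an integrin of myeloid cells, gave 38.4, 28.4, 74.8 and 55.2 units, and *CSF1R*, a growth factor receptor of macrophages, gave 11.1, 11.01, 16.2 and 25.3 units. *S100A8* was well above background only in cells labelled Arp8 OE, at 16.1 units. *CD14* and *FCN1* were measured as well and were not higher on both Arp8 arrays with every probe. *MPO*, *ELANE* and *S100A9* were not well above background on any array. Of the 10 measured myeloid markers, 6, 6, 6 and 7 were well above background in the same order of arrays. The summed signal of these was 834, 1093, 3168 and 2064 units, most of it from *CD33*.

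Most of a row of neighboring histone genes on chromosome 6 were lowest in cells labelled Arp8 OE. The genes named here were singled out after their values were seen. In a window of 21 genes, 20 of them histone genes, the log2 ratio to wild type had a median of -0.92 in these cells, -0.14 in Arp8 KO and 0.31 in Arp5 KO cells. *H2BC5* had -1.58, -0.41 and 0.43, and *H2BC7* had -1.49, -0.38 and 0.16 in the same order. In cells labelled Arp8 OE 13 of the 20 histone genes were below -0.5 and more than 0.5 below both other ratios. The other 7, among them *H4C3* with 0.07, 0.05 and 0.10, were not. The window held 0 member genes.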
